A study of Mus musculus with 281 samples.

Results

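Of the 281 single cells of the series, 92 were compared here: 45 cells labelled Ly6C-GMP and 47 cells labelled CMP. GMP stands for granulocyte-monocyte progenitor and CMP for common myeloid progenitor. The donors were C57BL/6 mice, a common inbred strain, the tissue was bone marrow, and the labels give no allele, agent or age. Both sorts took CD34-positive cells that carried c-Kit but neither Sca-1 nor the surface markers of mature lineages. The Ly6C-GMP sort took those high in CD16/32, a pair of Fc receptors, and without surface Ly6C, and the CMP sort took those low in CD16/32. SMART-seq2 libraries, which cover whole transcripts, were made from each cell, and gene levels were given as TPM, transcript abundances scaled to a fixed total per cell. Sample titles began with RHP for 15 Ly6C-GMP and 16 CMP cells and with RMB for 30 Ly6C-GMP and 31 CMP cells. What the prefixes stand for is not stated, so each comparison was made over all cells and again within each prefix. No animal is named for any cell. Each label therefore counts as 1 sample, no test between the labels can be made, and every spread below is one between cells.

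In the classical scheme of blood formation, stem cells give rise to common myeloid progenitors, and these to granulocyte-monocyte progenitors or to progenitors of red cells and platelets. The transcription factors PU.1 and C/EBPα direct cells to the granulocyte and monocyte side, while GATA1 and its partners direct them to the erythroid and megakaryocyte side. Granulocyte-monocyte progenitors begin to fill primary, or azurophil, granules with myeloperoxidase and serine proteases such as neutrophil elastase, cathepsin G and proteinase 3. Secondary granule proteins follow later in neutrophil maturation.

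The comparison turned on primary granule genes and on Ms4a3 at one end, and on Car2 and stem cell genes such as Meis1 at the other. The 300 bases from 250 before to 50 after the start of 6 of these genes are shown from RefSeq on GRCm38.p6, 5′ to 3′ on the gene's own strand, because the granule genes differed together. Capitals mark GAGGAA, letters of a PU.1 site, which were searched on both strands (TTCCTC on the other one).
Elane (chr10:79886062-79886361, plus strand): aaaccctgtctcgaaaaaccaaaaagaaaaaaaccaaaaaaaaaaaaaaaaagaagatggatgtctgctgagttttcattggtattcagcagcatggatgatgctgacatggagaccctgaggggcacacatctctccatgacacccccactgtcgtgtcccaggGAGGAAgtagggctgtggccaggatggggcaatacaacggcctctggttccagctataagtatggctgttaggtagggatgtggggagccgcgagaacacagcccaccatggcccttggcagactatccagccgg
Prtn3 (chr10:79879417-79879716, plus strand): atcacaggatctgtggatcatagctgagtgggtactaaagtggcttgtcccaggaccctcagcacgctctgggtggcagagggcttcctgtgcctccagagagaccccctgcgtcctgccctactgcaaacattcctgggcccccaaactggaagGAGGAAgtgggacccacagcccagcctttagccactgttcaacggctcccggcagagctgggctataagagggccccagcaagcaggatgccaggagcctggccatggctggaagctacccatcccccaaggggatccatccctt
Mpo (chr11:87793534-87793833, plus strand): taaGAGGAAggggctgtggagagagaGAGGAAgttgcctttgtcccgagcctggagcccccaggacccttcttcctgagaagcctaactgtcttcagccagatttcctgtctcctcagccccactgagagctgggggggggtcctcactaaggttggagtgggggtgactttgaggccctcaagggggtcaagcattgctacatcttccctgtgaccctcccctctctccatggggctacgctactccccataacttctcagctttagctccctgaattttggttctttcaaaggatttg
Ctsg (chr14:56102525-56102824, minus strand): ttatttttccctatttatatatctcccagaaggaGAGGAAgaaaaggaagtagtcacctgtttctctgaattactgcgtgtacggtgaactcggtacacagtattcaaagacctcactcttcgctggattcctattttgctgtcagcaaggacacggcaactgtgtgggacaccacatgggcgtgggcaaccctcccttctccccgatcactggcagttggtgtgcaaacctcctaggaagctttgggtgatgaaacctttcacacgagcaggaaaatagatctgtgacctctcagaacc
Ms4a3 (chr19:11640802-11641101, minus strand): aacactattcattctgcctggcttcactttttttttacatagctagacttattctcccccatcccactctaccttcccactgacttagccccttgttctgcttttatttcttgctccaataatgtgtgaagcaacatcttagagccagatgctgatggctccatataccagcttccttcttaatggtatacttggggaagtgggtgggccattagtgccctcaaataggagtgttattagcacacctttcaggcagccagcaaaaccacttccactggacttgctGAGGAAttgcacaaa
Meis1 (chr11:19018920-19019219, minus strand): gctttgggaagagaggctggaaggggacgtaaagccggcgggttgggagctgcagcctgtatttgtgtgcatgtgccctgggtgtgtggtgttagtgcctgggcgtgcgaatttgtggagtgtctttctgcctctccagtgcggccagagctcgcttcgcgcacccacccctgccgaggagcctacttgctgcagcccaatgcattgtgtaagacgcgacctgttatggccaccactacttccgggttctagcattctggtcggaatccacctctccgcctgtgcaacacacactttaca
In Elane and Prtn3, which lie close together on chromosome 10, the match began 85 and 95 bases before the start. Mpo held 2 matches, which began 247 and 224 bases before the start, and that of Ctsg began 216 bases before it. The Ms4a3 match began 35 bases after the start, and the 300 bases of Meis1 held none. Other genes went the other way: the promoter of Hdc, which was among the genes with the largest positive differences, held 0 matches, and that of Itga2b, which was lower in Ly6C-GMP cells, held 2. The letters were found in 9 of the 14 primary granule genes with a sequence, in 8 of 11 among the 15 genes with the largest positive differences and in 5 of 11 among the 15 with the largest negative ones, against 28.3% of all 27025 promoters of this length. The primary granule set and the set of largest positive differences share genes such as Elane, Ctsg and Mpo, so their counts are not separate. The erythroid factor letters AGATAA were in 0 of the 14 primary granule genes and in 11.4% of all promoters. For a C/EBP site (TTNCNNAA, where N is any base) the counts were 5 of 14 and 40.7%, and for a MYB site (AACNGNC) 7 of 14 and 32.8%. Such matches describe these stretches of sequence and do not show binding.

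Before the results, 3 features of the libraries need to be known. Ly6C-GMP cells had more genes at 1 TPM or more than CMP cells: the lowest, median and highest numbers were 2610, 4514 and 5398 in Ly6C-GMP cells, against 2356, 3489 and 4975 in CMP cells. The part of this gap in any result was not tested, and values for cells with 3000 to 5000 detected genes are given beside the main groups of genes. A separate point is that 3 Ly6C-GMP cells held at least 1000 TPM of Ngp, a late neutrophil granule gene, against at most 11.57 TPM in CMP cells. These 3 had 2694, 5582 and 40544 TPM of Ngp, and 2 of them had only 32.9 and 23.3 TPM of Elane, so they stood apart from their label. Finally, the mitochondrial gene mt-Co3 was listed at 0 in 41 of 45 Ly6C-GMP cells and 43 of 47 CMP cells although mt-Co1 was at 595 TPM or more in every cell. A listed 0 is therefore not evidence of absence. TPM keep no read depth, so the depth behind a value is unknown, and exact Clopper-Pearson intervals for shares of cells cover counting error only.

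Far more genes were at least 1 log2 unit higher than lower in Ly6C-GMP cells when the mean over cells of log2(TPM + 1) was compared, the scale of all differences below. Of 12582 genes whose mean reached 1 TPM in one label or the other, 1964 (15.6%) were higher and 162 (1.29%) lower, and the median over all genes was 0.19. Within RHP cells 16.6% were higher and 6.78% lower, and within RMB cells 20% and 2.27%. On the log2 ratio of mean TPM + 1 the balance turned: 1864 (14.8%) were higher and 2840 (22.6%) lower, and the median was -0.20. Of the genes past 1 unit, 92.4% were thus higher on the first scale and 39.6% on the second. Only 394 genes (3.13%) were past 1 unit upwards and 150 (1.19%) downwards on both. Among cells with 3000 to 5000 detected genes, 38 Ly6C-GMP and 31 CMP cells, the first scale gave 1105 higher and 569 lower of 12326 genes. Without the 3 cells high in Ngp it gave 2134 and 169 of 12504 genes. The first scale weighs how many cells hold a transcript and the second the few cells that hold most of it, so the counts of the groups below are given on both.

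Primary granule transcripts were higher nearly throughout. Of 16 measured members, 15 were higher, against 15.6% of all genes, 0 were lower, and Srgn, the proteoglycan core of granules, lay just inside the limit at 0.89. Their median difference was 2.43, 2.83 in RHP and 2.90 in RMB cells, against 0.19 for all genes, and 12 members were higher within both prefixes, against 7.49% of all genes. As a ratio of means 8 of 16 were higher, against 14.8% of all genes, and 0 lower, and the median was 0.92. In cells with 3000 to 5000 detected genes, 10 were past the limit, beside 1105 of 12326 genes higher there, and the median was 1.98. Without the 3 cells high in Ngp 14 were past it, beside 2134 of 12504 genes higher. Bpi, the remaining member of the list, was listed at 0 in all 92 cells.

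The elastase gene Elane (chromosome 10, 79886247 to 79888215, plus strand, GRCm38) had a lowest, median and highest level of 23.3, 15559 and 47568 TPM in Ly6C-GMP cells, against 0, 35.99 and 21323 TPM in CMP cells. It reached 1000 TPM in 40 of 45 Ly6C-GMP cells and in 7 of 47 CMP cells, and 1 CMP cell lay above the Ly6C-GMP median. The labels still overlapped, as 3 Ly6C-GMP cells held less than 50 TPM. The difference was 6.71, or 7.46 in RHP and 6.33 in RMB cells, and mean TPM was 10.8 times as high in Ly6C-GMP cells. A further 27 CMP cells held Elane at 1 to 50 TPM, as did 8 of 31 cells of tpMo, another label of the series. The low values differed by prefix: the lowest Elane level was 0 TPM in RHP and 13.8 TPM in RMB CMP cells. At 5 TPM, 6 of 16 RHP CMP cells held Car2 without Elane, against 0 of 31 RMB CMP cells. No label here lacks Elane for certain, so it was not tested whether such low values come from the cell, and a limit of 50 TPM is used for counts of cells.

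Mpo, the myeloperoxidase gene, was above 0 in every cell, with 31.7, 27758 and 51645 TPM in Ly6C-GMP cells, against 3.79, 2928 and 33684 TPM in CMP cells. Its mean was 27279 ± 11691 TPM in Ly6C-GMP cells, against 6682 ± 8793 TPM in CMP cells (SD over 45 and 47 cells). CMP cells covered nearly the whole range of the gene, and 2 of them lay above the Ly6C-GMP median. Ctsg (cathepsin G) had 6.2, 4792 and 13536 TPM in Ly6C-GMP cells, against 0, 398 and 6658 TPM in CMP cells, a difference of 5.06. Prtn3 (proteinase 3) had 2, 4088 and 10266 TPM in Ly6C-GMP cells, against 0, 638 and 4557 TPM in CMP cells, a difference of 3.41. Of these 4 genes Elane differed most between the labels, while Mpo and Prtn3 were held at 50 TPM or more by 38 and 34 of 47 CMP cells. Less abundant transcripts of the same group followed: Prss57, a serine protease of the azurophil granule, reached 50 TPM in 33 of 45 Ly6C-GMP cells and 11 of 47 CMP cells, and Cd63, a granule membrane tetraspanin, in 37 of 45 Ly6C-GMP cells and 17 of 47 CMP cells. Nkg7, a granule membrane protein gene also known from lymphocytes, had medians of 1958 TPM in Ly6C-GMP cells, against 561 TPM in CMP cells. Serpinb1a, an inhibitor of elastase and cathepsin G, differed by 2.28 over all cells but by -0.14 in RHP and 3.51 in RMB cells. The lysosomal proteins of the list stood lowest: on the log2 ratio of means Hexa and Lamp1 were at 0.14 and 0.07, and Man2b1 was below 0 at -0.14, while each was past 1 on the mean log scale.

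**Figure D1:**
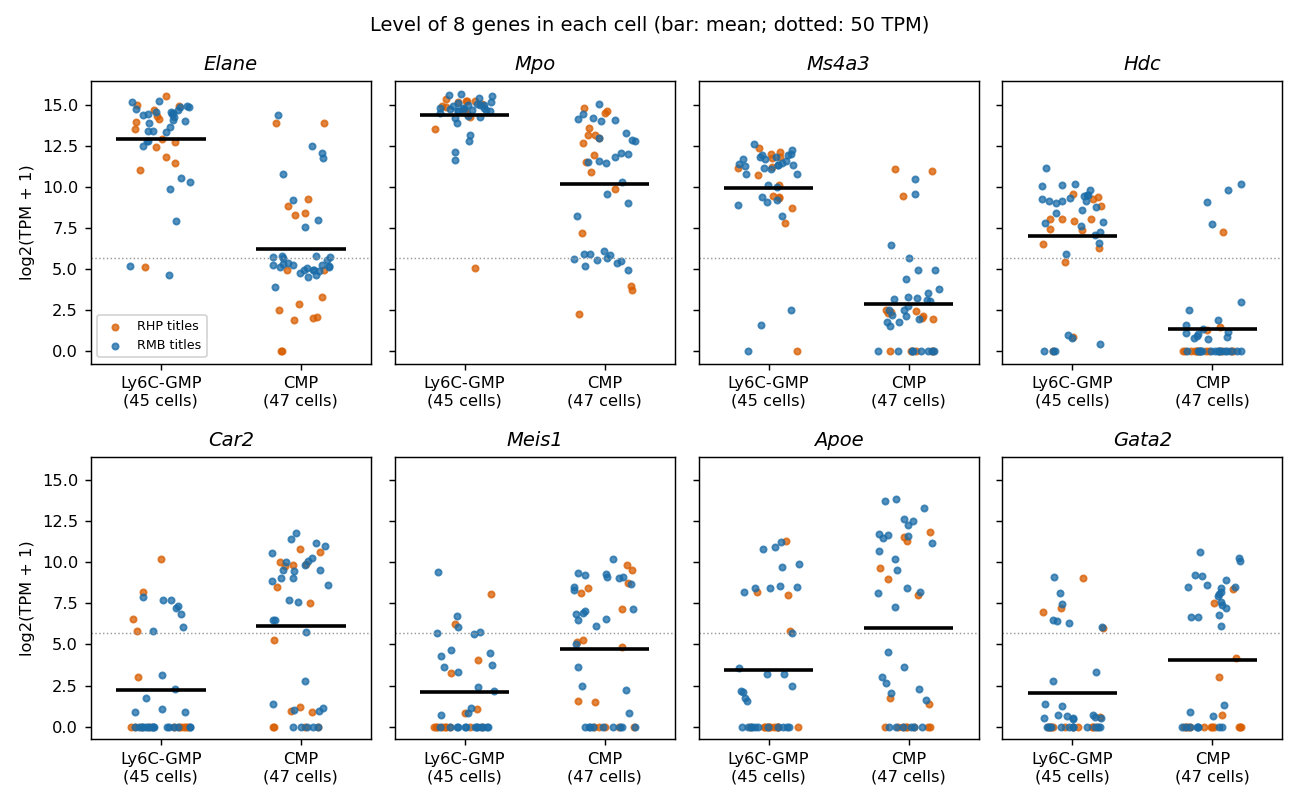
Level of 8 genes in each of 45 Ly6C-GMP cells and 47 CMP cells as log2(TPM + 1), coloured by title prefix, with the mean as a bar and 50 TPM as a dotted line. Elane reaches 1000 TPM in 40 Ly6C-GMP and 7 CMP cells, and Car2 reaches 50 TPM in 12 Ly6C-GMP and 29 CMP cells.

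Surface and metabolic genes of granulocyte-monocyte progenitors were higher in the same way. Of 25 measured, 20 were higher, against 15.6% of all genes, and 0 lower, and 18 were higher within both prefixes, against 7.49%. The 20 and the 18 include Fcgr3, which encodes a protein of the sort gate. Their median was 2.73, or 1.81 in cells with 3000 to 5000 detected genes. By the ratio of means 15 were higher, against 14.8% of all genes, and 1 lower, and the median was 1.39. Ms4a3, a membrane protein gene of these progenitors (chromosome 19, 11629496 to 11640851, minus strand), had the largest difference of all named genes at 7.07, with 6.91 in RHP and 7.15 in RMB cells. From lowest through median to highest, its levels were 0, 2259 and 6122 TPM in Ly6C-GMP cells, against 0, 3.88 and 2121 TPM in CMP cells. It reached 50 TPM in 41 of 45 Ly6C-GMP cells (91.1%, 95% bounds 78.8 and 97.5%), against 7 of 47 CMP cells (14.9%, bounds 6.2 and 28.3%), and 0 CMP cells lay above the Ly6C-GMP median.

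Clec12a, an inhibitory lectin receptor of myeloid cells, had medians of 617 TPM in Ly6C-GMP cells, against 3.4 TPM in CMP cells, with a difference of 4.85. Anxa3, an annexin of neutrophil granules, had medians of 434 TPM in Ly6C-GMP cells, against 1.26 TPM in CMP cells, with a difference of 5.11. Both were at 50 TPM in nearly all Ly6C-GMP cells, 42 and 40 of 45, and in a minority of CMP cells, 14 and 13 of 47. Rgcc, a regulator of the cell cycle, had 0, 467 and 2332 TPM in Ly6C-GMP cells, against 0, 0 and 216 TPM in CMP cells. Its log2 ratio of means was 5.92, on a CMP mean of 8.58 TPM that was 4.08 TPM without the highest CMP cell. Plac8, a small cysteine-rich protein gene, was at 50 TPM in 45 of 45 Ly6C-GMP cells and 43 of 47 CMP cells, so nearly every cell of both labels held it, at medians of 4710.4 TPM in Ly6C-GMP cells, against 1393 TPM in CMP cells. Gstm1, a glutathione transferase, had medians of 804 TPM in Ly6C-GMP cells, against 7.22 TPM in CMP cells. Lyz2 (lysozyme) had medians of 196 TPM in Ly6C-GMP cells, against 468 TPM in CMP cells, with a difference of -0.46, while its log2 ratio of means was 1.00. The Ly6C-GMP mean of Lyz2 was 1079.8 TPM and 704 TPM without 1 cell of 17626 TPM.

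Genes of the sort itself followed it in part. Fcgr3 (CD16) had medians of 559 TPM in Ly6C-GMP cells, against 1.39 TPM in CMP cells, and Fcgr2b (part of CD32) reached 50 TPM in 28 of 45 Ly6C-GMP cells and 10 of 47 CMP cells. Both receptors were part of the gate, so these values are no finding. Ly6c2, which encodes Ly6C, was higher in the cells sorted as lacking the protein, with 0, 1592 and 9674 TPM in Ly6C-GMP cells, against 0, 10.4 and 10141 TPM in CMP cells, with a difference of 4.71. Ly6c1 and Ly6c2 are near-identical, and their reads are shared out by estimate. Kit and Cd34, required by both gates, had medians of 73.2 TPM in Ly6C-GMP cells, against 111 TPM in CMP cells, and of 378 TPM in Ly6C-GMP cells, against 693 TPM in CMP cells.

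Several enzymes that make small inflammatory mediators were higher. Of 10 measured genes of leukotriene synthesis and its neighbours, 4 were higher, against 15.6% of all genes, and 0 lower. All 4 were so within both prefixes, against 7.49%. By the ratio of means 4 were higher and 1 lower, against 14.8% and 22.6%, and 3 were higher on both scales, against 3.13%. Lta4h, the hydrolase that makes leukotriene B4, had 0.81, 788 and 2065 TPM in Ly6C-GMP cells, against 0, 234 and 1237 TPM in CMP cells, a difference of 3.24. Mgst2, which can make leukotriene C4, was at 50 TPM in 14 of 45 Ly6C-GMP cells and 0 of 47 CMP cells. Alox5ap, the partner of 5-lipoxygenase, was at 50 TPM in all 45 Ly6C-GMP cells and in 36 of 47 CMP cells, with mean TPM 1.58 times as high in Ly6C-GMP cells. Alox5 itself reached 50 TPM in 3 of 45 Ly6C-GMP cells and 0 of 47 CMP cells. Ltb4r1, the high-affinity leukotriene B4 receptor, had medians of 85.6 TPM in Ly6C-GMP cells, against 0 TPM in CMP cells. Its difference was 2.24 in RHP and 4.74 in RMB cells, and the CMP mean of 17.6 TPM dropped to 3.58 TPM without 1 cell. Hdc, the enzyme that makes histamine, reached 50 TPM in 36 of 45 Ly6C-GMP cells (80%, 95% bounds 65.4 and 90.4%), against 5 of 47 CMP cells (10.6%, bounds 3.55 and 23.1%). Its difference was 5.66, with 6.23 in RHP and 5.36 in RMB cells, and the highest CMP cell held 1135 TPM.

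The regulators of the neutrophil lineage differed less as a group. Of 13 measured, 4 were higher and 1 lower, against 15.6% and 1.29% of all genes, at a median of 0.65. Within both prefixes 2 were higher, against 7.49%. By the ratio of means 5 were higher and 1 lower, against 14.8% and 22.6% of all genes, and the median was 0.21. Cebpe, a factor of late granulocyte maturation, had 0, 30.1 and 1408 TPM in Ly6C-GMP cells, against 0, 0 and 1.29 TPM in CMP cells. It reached 50 TPM in 22 of 45 Ly6C-GMP cells (48.9%, 95% bounds 33.7 and 64.2%), against 0 of 47 CMP cells (0%, bounds 0 and 7.55%), the largest gap of the list at 3.79. Spi1, which encodes PU.1, had 0, 234 and 1279 TPM in Ly6C-GMP cells, against 0, 132 and 943 TPM in CMP cells, a difference of 2.56, with 2.20 in RHP and 2.73 in RMB cells. As a log2 ratio of means Spi1 was inside the limit, at 0.76. Cebpd reached 50 TPM in 19 of 45 Ly6C-GMP cells and 5 of 47 CMP cells. Cebpa, the factor required to form these progenitors, reached 1 TPM in only 14 of 45 Ly6C-GMP cells and 8 of 47 CMP cells, and its difference of 0.65 did not pass the limit. Gfi1, a repressor needed by neutrophils, was at 1 TPM in 7 of 45 Ly6C-GMP cells and 0 of 47 CMP cells. The member that was lower, Zfp36l2, an RNA-binding protein that destabilises messenger RNA, had medians of 9.86 TPM in Ly6C-GMP cells, against 50.8 TPM in CMP cells. Irf8, the factor of monocyte and dendritic cell fate, was at 50 TPM in 18 of 45 Ly6C-GMP cells and 16 of 47 CMP cells, with a difference of -0.36. In the 18 measured monocyte and dendritic cell genes 2 were higher and 1 lower, against 15.6% and 1.29%, and the median was -0.12. As a ratio of means 3 were higher and 5 lower, against 14.8% and 22.6%. Csf1r, the receptor of the monocyte growth factor, was at 50 TPM in 10 of 45 Ly6C-GMP cells and 10 of 47 CMP cells.

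Late granule genes depended on the scale and on a few Ly6C-GMP cells. Of 23 measured, 6 were higher, against 15.6% of all genes, and 0 lower, at a median of 0.52, but 17 were higher and 1 lower as a ratio of means, against 14.8% and 22.6%, where the median was 3.17. Without the 3 cells high in Ngp the median difference was 0.09. S100a8, a calcium-binding protein of neutrophils, had a mean of 1681 TPM in Ly6C-GMP cells, which was 27.2 TPM without the 3 cells high in Ngp, against 75.5 TPM in CMP cells, or 2.38 TPM without the highest CMP cell. Camp reached 50 TPM in 2 of 45 Ly6C-GMP cells and 0 of 47 CMP cells and Ltf in 2 of 45 Ly6C-GMP cells and 0 of 47 CMP cells. Pglyrp1, a peptidoglycan recognition protein, was spread more widely, at 50 TPM in 24 of 45 Ly6C-GMP cells and 4 of 47 CMP cells with a difference of 3.85. Anxa1, an annexin of the same list, had medians of 433 TPM in Ly6C-GMP cells, against 7.12 TPM in CMP cells.

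Genes of protein secretion were also mostly higher. Of 40 genes of translocation into the endoplasmic reticulum, folding and export, 35 were higher, against 15.6% of all genes, and 0 lower, and 27 were higher within both prefixes, against 7.49%, with a median of 1.89. As a ratio of means 38 of 40 lay above 0, 9 were higher by 1 unit, against 14.8% of all genes, and 0 were lower, with a median of 0.75. In cells with 3000 to 5000 detected genes the median was 1.18. Hspa5, the main chaperone of this compartment, had 3.07, 1283 and 3138 TPM in Ly6C-GMP cells, against 0.95, 361 and 2758 TPM in CMP cells. Calr, the calcium-binding chaperone calreticulin, had 3.3, 726 and 1448 TPM in Ly6C-GMP cells, against 0, 144 and 1496 TPM in CMP cells, and its difference was 3.04. The disulfide isomerase gene Pdia4 had medians of 346 TPM in Ly6C-GMP cells, against 4.89 TPM in CMP cells, and Lman1, a cargo receptor for export, of 117 TPM in Ly6C-GMP cells, against 2.26 TPM in CMP cells. Levels overlapped between the labels for each of these, since the highest CMP cell of Calr and Pdia4 exceeded the highest Ly6C-GMP cell. Canx and Tram1, at 0.59 and 0.12, were among the 5 members inside the limit.

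Growth and energy genes gave a result that depended on the scale. Over all genes 15.6% were higher and 1.29% lower, and as a ratio of means 14.8% and 22.6%. DNA replication had 13 of 26 genes higher, against 15.6% of all genes, and 0 lower, and as a ratio of means 1 higher and 2 lower. On the first scale their median was 0.93, while the median was 0.00 on the ratio of means and 0.20 in cells with 3000 to 5000 detected genes. Mitosis had 5 of 24 genes higher, near the share of all genes, 0 lower and none past 1 unit as a ratio of means, at medians of 0.50, -0.24 and -0.61 in the same order, so their direction changed with the scale and the cells. Mcm5, a helicase subunit, had medians of 201 TPM in Ly6C-GMP cells, against 34.04 TPM in CMP cells, on means of 240.3 TPM in Ly6C-GMP cells, against 235 TPM in CMP cells. Chaf1a, a chromatin assembly factor, was the replication gene past the limit on both scales, at 50 TPM in 17 of 45 Ly6C-GMP cells and 5 of 47 CMP cells. Ribosome biogenesis genes, with 8 of 26 higher and none past 1 unit as a ratio of means, also changed sign, at 0.73 and -0.16. Of 23 genes of glycolysis and the pentose phosphate pathway 13 were higher and 0 lower, against 2 and 2 as a ratio of means, at medians of 1.22 and 0.31. Pfkp, a phosphofructokinase, was at 50 TPM in 26 of 45 Ly6C-GMP cells and 7 of 47 CMP cells, and Hk3, a hexokinase of myeloid cells, in 39 of 45 Ly6C-GMP cells and 20 of 47 CMP cells. Alas1, the first enzyme of heme synthesis outside red cells, had medians of 849.7 TPM in Ly6C-GMP cells, against 3.43 TPM in CMP cells, whereas 16 of the 20 heme and iron genes lay inside the limit and, as a ratio of means, 3 were higher and 5 lower. Of the 7 subunits of the NADPH oxidase 4 were higher and 0 lower, and as a ratio of means 2 were higher and 0 lower.

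Erythroid genes went the other way from the granule genes, but 16 of 24 lay inside the limit on the mean log scale. Of 24 measured, 0 were higher and 8 lower, against 1.29% of all genes, at a median of -0.41. Within both prefixes 5 were lower, against 0.58% of all genes. As a ratio of means 19 were lower, against 22.6% of all genes, and 23 of 24 lay below 0, with a median of -2.56. In cells with 3000 to 5000 detected genes the count was again 8, beside 569 of 12326 genes lower there, a larger share than over all cells. It was 8 without the cells high in Ngp, beside 169 of 12504 genes lower. The carbonic anhydrase gene Car2 (chromosome 3, 14886273 to 14900770, plus strand) had 0, 0 and 1189.9 TPM in Ly6C-GMP cells, against 0, 207 and 3534 TPM in CMP cells. It reached 50 TPM in 12 of 45 Ly6C-GMP cells (26.7%, 95% bounds 14.6 and 41.9%), against 29 of 47 CMP cells (61.7%, bounds 46.4 and 75.5%), and 5 Ly6C-GMP cells lay above the CMP median. The difference was -3.87, with -3.08 in RHP and -4.28 in RMB cells. Mean TPM was 9.73 times as high in CMP cells, and the Ly6C-GMP mean of 63.6 TPM was 38.04 TPM without 1 cell.

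Mfsd2b, a sphingosine 1-phosphate exporter of red cells and platelets, was at 50 TPM in 0 of 45 Ly6C-GMP cells and 12 of 47 CMP cells, and its highest Ly6C-GMP level was 4.92 TPM. Klf1, the erythroid Krüppel-like factor, was at 50 TPM in 3 of 45 Ly6C-GMP cells and 9 of 47 CMP cells, and Gata1 in 2 of 45 Ly6C-GMP cells and 7 of 47 CMP cells. Both had a median of 0 TPM in each label. Car1 reached 7676 TPM in 1 CMP cell and 50 TPM in 1 of 45 Ly6C-GMP cells and 6 of 47 CMP cells, with the Ly6C-GMP mean of 33.5 TPM resting on 1 cell, without which it was 0.19 TPM. Lmo2, a partner of TAL1 and GATA factors, was more widely held, with 0, 44.6 and 563 TPM in Ly6C-GMP cells, against 0, 189 and 2218 TPM in CMP cells. The globin genes Hba-a1 and Hba-a2 were listed at 0 in all 92 cells, and Hbb-bt was above 0 in 1 CMP cell. None of the 3 was among the measured genes.

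Megakaryocyte genes showed the same direction with a smaller share past the limit. Of 29 measured, 6 were lower and 2 higher, against 1.29% and 15.6% of all genes, with a median of -0.46, and 2 were lower within both prefixes, against 0.58% of all genes. In cells with 3000 to 5000 detected genes 4 were lower, beside 569 of 12326 genes lower there, and the median was -0.25. As a ratio of means 22 were lower and 0 higher, against 22.6% and 14.8% of all genes. Itga2b, which encodes CD41, was at 50 TPM in 2 of 45 Ly6C-GMP cells and 12 of 47 CMP cells, with a difference of -1.83. F2r, the thrombin receptor, was at 50 TPM in 1 of 45 Ly6C-GMP cells and 11 of 47 CMP cells. Epor, the erythropoietin receptor, was listed at 0 in all 45 Ly6C-GMP cells and reached 50 TPM in 3 of 47 CMP cells. Pf4, a platelet chemokine, was listed at 0 in every Ly6C-GMP cell and reached 50 TPM in 2 CMP cells. The 2 members that were higher were Tuba4a, a tubulin, at medians of 534 TPM in Ly6C-GMP cells, against 273 TPM in CMP cells, and Cd9, a tetraspanin, at 50 TPM in 20 of 45 Ly6C-GMP cells and 11 of 47 CMP cells.

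Among 24 GATA, TAL1 and partner factors 6 were lower, against 1.29% of all genes, and 0 higher. Within both prefixes 3 were lower, against 0.58%. The ratio of means gave 12 lower, against 22.6%, and 0 higher. Gata2, a factor of stem cells, mast cells and early erythroid progenitors, had 0, 0.41 and 556 TPM in Ly6C-GMP cells, against 0, 7.24 and 1612 TPM in CMP cells. Its difference of -2.01 was not shared by RHP cells: it was 0.50 in RHP and -3.31 in RMB cells, so the direction differed between the prefixes. Bcl11a, a repressor of fetal globin, was at 50 TPM in 8 of 45 Ly6C-GMP cells and 18 of 47 CMP cells, and Stat5a, which acts below cytokine receptors, in 7 of 45 Ly6C-GMP cells and 14 of 47 CMP cells. Tal1 and Lyl1 were inside the limit at -0.44 and 0.38.

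Stem and multipotent progenitor genes held the largest number of lower members on the mean log scale. On the ratio of means megakaryocyte genes held more, 22 against 21. Of 38 measured, 13 were lower, against 1.29% of all genes, and 0 higher, and 9 were lower within both prefixes, against 0.58%, with a median of -0.31. By the ratio of means 21 were lower, against 22.6%, and 3 higher. In cells with 3000 to 5000 detected genes 12 were past the limit, beside 569 of 12326 genes lower there. Meis1, a homeobox gene of stem cells (chromosome 11, 18879817 to 19018985, minus strand), had 0, 0.64 and 674 TPM in Ly6C-GMP cells, against 0, 36.9 and 1176 TPM in CMP cells. It reached 50 TPM in 7 of 45 Ly6C-GMP cells (15.6%, 95% bounds 6.49 and 29.5%), against 23 of 47 CMP cells (48.9%, bounds 34.1 and 63.9%), and 8 Ly6C-GMP cells lay above the CMP median. Its difference was -2.64, with -2.81 in RHP and -2.55 in RMB cells. The Ly6C-GMP mean of 32.8 TPM dropped to 18.2 TPM without 1 cell. The other 8 measured Hox and Meis family members lay inside the limit, with Hoxa9 at 0.82.

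Apoe, the apolipoprotein E gene, reached the highest level of the list, with 0, 1.98 and 2539 TPM in Ly6C-GMP cells, against 0, 158 and 15029 TPM in CMP cells. Angpt1, which encodes the niche factor angiopoietin 1, was at 50 TPM in 4 of 45 Ly6C-GMP cells and 19 of 47 CMP cells, with a difference of -2.62. Ifitm1, an interferon-induced membrane protein, was at 50 TPM in 16 of 45 Ly6C-GMP cells and 26 of 47 CMP cells. Its mean log difference was -2.52, but among RHP cells the log2 ratio of means was positive, at 0.89. Flt3, a receptor of multipotent and lymphoid progenitors, was at 50 TPM in 3 of 45 Ly6C-GMP cells and 12 of 47 CMP cells, and Mycn in 1 of 45 Ly6C-GMP cells and 8 of 47 CMP cells. Cdk6, a kinase of early progenitors, was at 370.3 TPM or more in every cell, with means of 869.6 ± 423 TPM in Ly6C-GMP cells, against 1005 ± 415 TPM in CMP cells (SD over 45 and 47 cells), a gap smaller than the spread between cells.

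The 15 genes with the largest negative differences also held genes outside the lineage lists. Dhrs3, a retinal reductase, had medians of 0 TPM in Ly6C-GMP cells, against 3.9 TPM in CMP cells, with a difference of -2.86. Abcg1, a cholesterol exporter, had 0, 24.7 and 123 TPM in Ly6C-GMP cells, against 0, 156 and 1617 TPM in CMP cells, a difference of -2.61. Sgms1, a sphingomyelin synthase, was at 50 TPM in 1 of 45 Ly6C-GMP cells and 14 of 47 CMP cells. Of 15 genes of the MHC class I and II pathways 4 were lower and 1 higher, against 1.29% and 15.6% of all genes, and all 5 were so within both prefixes. The ratio of means gave 6 lower, against 22.6%, and 0 higher. H2-T23, a nonclassical class I molecule, had 0, 98.8 and 1019 TPM in Ly6C-GMP cells, against 0, 353 and 1947 TPM in CMP cells, a difference of -2.81. H2-DMa, which loads class II molecules, had medians of 120.5 TPM in Ly6C-GMP cells, against 404 TPM in CMP cells, and the peptide transporter subunits Tap1 and Tap2 had medians of 59.5 TPM in Ly6C-GMP cells, against 126 TPM in CMP cells, and of 9.4 TPM in Ly6C-GMP cells, against 132 TPM in CMP cells. H2-Ob, outside that list, was at 50 TPM in 4 of 45 Ly6C-GMP cells and 18 of 47 CMP cells. The class I genes H2-K1 and B2m differed by less than the SD over cells: H2-K1 averaged 1484 ± 756 TPM in Ly6C-GMP cells, against 2236 ± 1366 TPM in CMP cells, and B2m averaged 2898 ± 1063 TPM in Ly6C-GMP cells, against 3463 ± 1356 TPM in CMP cells (SD over 45 and 47 cells). Tapbp, the member that was higher at 1.68, was at -0.42 on the log2 ratio of means and so changed sign.

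**Figure D2:**
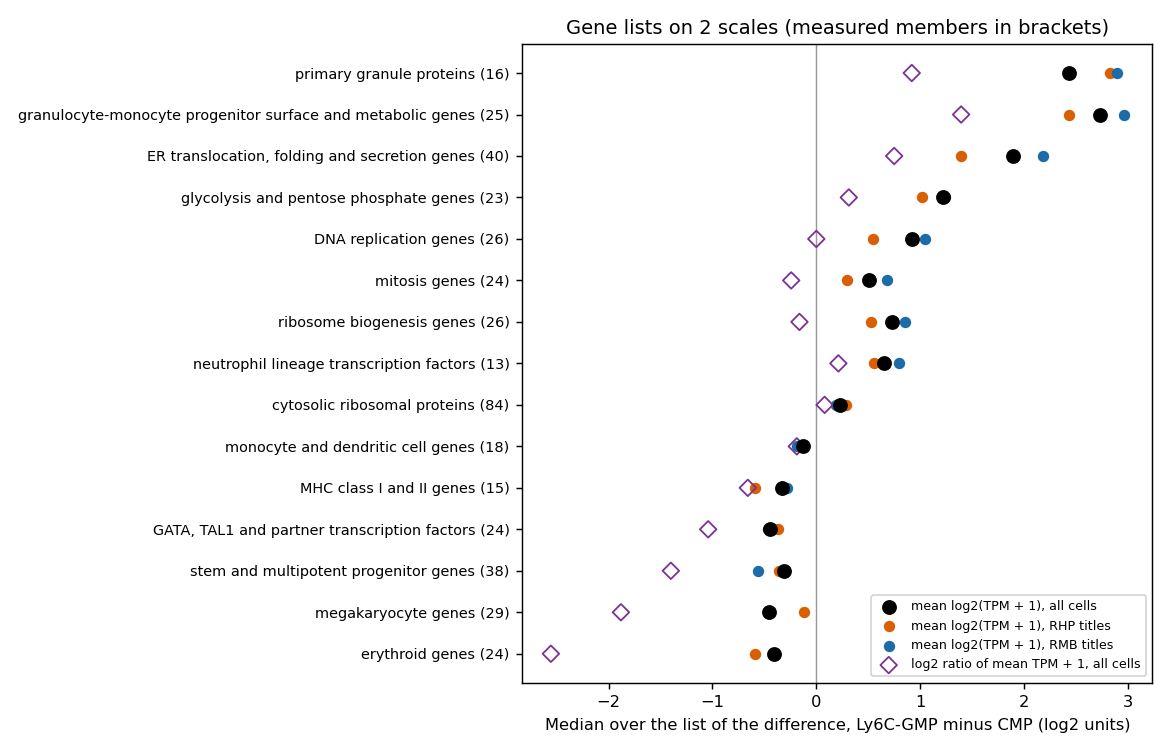
Median difference of 15 gene lists between 45 Ly6C-GMP cells and 47 CMP cells in log2 units, for all cells and within each title prefix on the mean log2(TPM + 1) scale (filled points) and for all cells as the log2 ratio of mean TPM + 1 (open diamonds). Primary granule genes are at 2.43 and 0.92 on the scales and erythroid genes at -0.41 and -2.56, while mitosis and ribosome biogenesis genes lie on opposite sides of 0.

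Receptors for growth factors gave counts whose balance turned with the scale. Of 34 measured, 8 were higher and 3 lower, against 15.6% and 1.29%, and as a ratio of means 5 were higher and 8 lower, against 14.8% and 22.6%. On both scales 3 were higher and 3 lower, against 3.13% and 1.19%. Csf2ra, part of the GM-CSF receptor, was at 50 TPM in 11 of 45 Ly6C-GMP cells and 6 of 47 CMP cells, and Csf3r, the G-CSF receptor, in 21 of 45 Ly6C-GMP cells and 16 of 47 CMP cells, with differences of 1.07 and 1.06. As a log2 ratio of means Csf3r was at -0.21. Il6ra, the receptor of interleukin 6, was at 50 TPM in 17 of 45 Ly6C-GMP cells and 7 of 47 CMP cells. Ifngr1, a chain of the interferon-gamma receptor, had medians of 449 TPM in Ly6C-GMP cells, against 274 TPM in CMP cells. Il2rg, the shared chain of several interleukin receptors, was among the lower members, at 50 TPM in 15 of 45 Ly6C-GMP cells and 22 of 47 CMP cells.

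Genes of other granulocytes were found in cells of both labels. Basophils and mast cells had 3 of 13 measured genes higher and 2 lower, against 15.6% and 1.29% of all genes. As a ratio of means 7 were higher and 3 lower, against 14.8% and 22.6%. The same shares over all genes stand beside the eosinophil, lymphoid and macrophage counts. The basophil and mast cell list shares Hdc and Gata2 with the groups above. For eosinophils 1 of 5 was higher, and 5 as a ratio of means. Cpa3, a mast cell protease, was at 50 TPM in 15 of 45 Ly6C-GMP cells and 10 of 47 CMP cells, with a highest level of 6602 TPM in Ly6C-GMP cells, against 2024 TPM in CMP cells. Mcpt8, a basophil protease, was at 50 TPM in 11 of 45 Ly6C-GMP cells and 3 of 47 CMP cells. Its Ly6C-GMP mean of 78.2 TPM dropped to 36.1 TPM without 1 cell. Itgb7, an integrin of mast cell progenitors, was at 50 TPM in 1 of 45 Ly6C-GMP cells and 10 of 47 CMP cells. Prg2, which encodes eosinophil major basic protein, reached 50 TPM in 2 of 45 Ly6C-GMP cells and 0 of 47 CMP cells, at up to 3099 TPM. Of 10 lymphoid genes the member that was higher was Nkg7, described with the granule genes, and as a ratio of means 2 were higher and 5 lower. No macrophage gene of 8 and no stroma or endothelium gene of 1 measured was past the limit on the mean log scale, while as a ratio of means 4 macrophage genes were higher and 2 lower. Few cells lay behind these macrophage counts, since the median number of macrophage genes at 50 TPM was 0 per cell in each label. Without each gene's highest cell the median difference of that list was 0.03. The remaining lists are given as counts on the mean log scale and then as a ratio of means, beside 15.6% higher and 1.29% lower, then 14.8% and 22.6%, over all genes. Integrins and adhesion molecules had 6 of 26 higher and 3 lower, then 1 and 3. Interferon response genes had 2 of 16 higher and 0 lower, then 0 higher and 11 lower. G1 cyclins, kinases and inhibitors had 1 of 19 higher and 0 lower, then 3 and 4, and immediate early and heat shock genes had 1 of 13 higher and 0 lower, then 1 and 4. Cytosolic ribosomal proteins had 6 of 84 higher and 0 lower, then 2 and 0, and mitochondrially encoded genes had 1 of 13 higher and 0 lower, then 1 and 0. Of 4 sex chromosome genes none was past the limit, then 0 were higher and 2 lower.

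Cell by cell, genes of the granule list and of the early lists were found together within both labels. Of the 17 primary granule genes, a lowest, median and highest number of 4, 13 and 16 were at 50 TPM or more in a Ly6C-GMP cell, against 2, 8 and 15 in a CMP cell. Of the 111 erythroid, megakaryocyte and stem genes joined in 1 list, the numbers were 8, 12 and 27 in a Ly6C-GMP cell, against 9, 18 and 30 in a CMP cell. Every cell thus held at least 8 of the 111, so such a count alone does not show an early programme in a cell. The CMP cells thus spread from few granule genes with many early genes to the values of a typical Ly6C-GMP cell, and the labels overlapped in both numbers. Within prefixes, stem gene medians in Ly6C-GMP and CMP cells were 8 and 8 for RHP, and 8 and 12 for RMB titles. Megakaryocyte medians were 3 and 3.5, then 3 and 5, and erythroid medians 3 and 4, then 2 and 4. Primary granule medians were 14 and 8, then 13 and 8. The gap in these per-cell counts of stem and megakaryocyte genes was thus mainly one of RMB cells. On the mean log scale, however, 11 of 38 measured stem genes were lower within RHP and 13 within RMB cells. For the 29 measured megakaryocyte genes these numbers were 4 and 10. Counts at 50 TPM also move with the number of genes a cell holds at that level, whose median was 2902 in Ly6C-GMP cells and 2353 in CMP cells; their part in these counts was not tested.

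**Figure D3:**
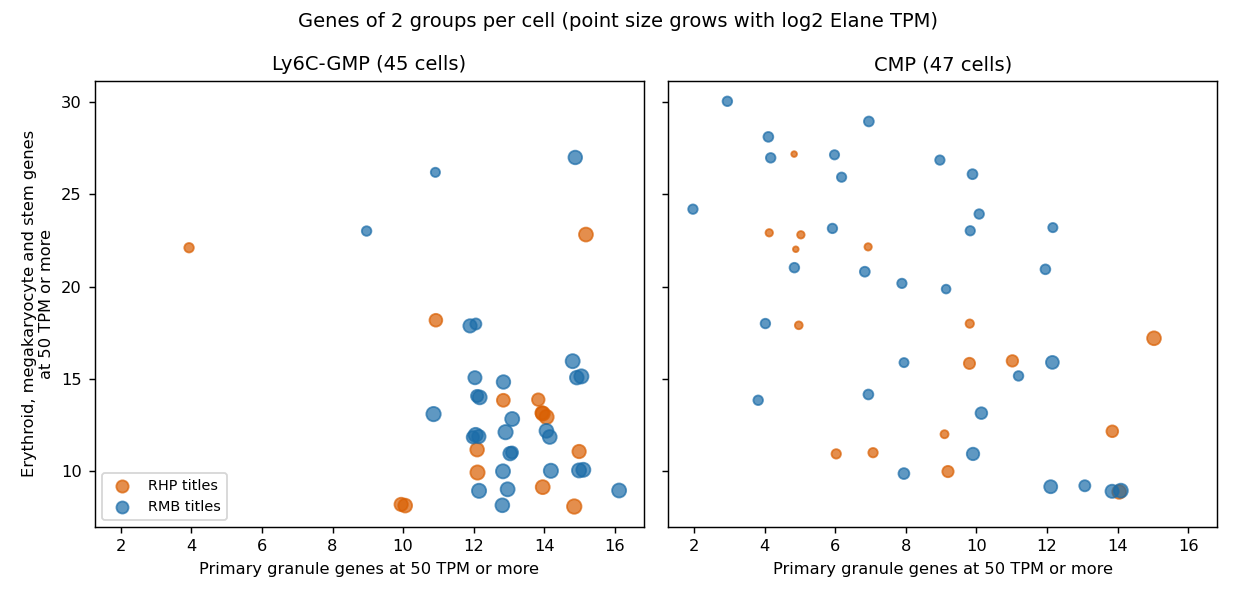
Number of primary granule genes (of 17) against the number of erythroid, megakaryocyte and stem genes (of 111) at 50 TPM or more in each cell, shifted slightly to separate points, coloured by title prefix and with point size growing with Elane. The medians are 13 and 12 in the 45 Ly6C-GMP cells and 8 and 18 in the 47 CMP cells.

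Pairs of genes showed how often single genes of different lineages met in 1 cell. Elane and Car2 both reached 50 TPM in 10 of the 45 Ly6C-GMP cells (22.2%, 95% bounds 11.2 and 37.1%), against 7 of the 47 CMP cells (14.9%, bounds 6.2 and 28.3%). Elane in these 7 CMP cells was at 459.34, 302.82, 184.24, 53.85, 53.56, 51.36 and 50.67 TPM. Most of these CMP pairs thus lay just past the limit, at low levels of Elane whose source was not tested. With Elane at 1000 TPM or more, Car2 was at 50 TPM in 10 of 40 Ly6C-GMP cells and in 0 of 7 CMP cells, in which Car2 was at most 1.62 TPM. These 7 cells had 4244 to 4975 detected genes, above the CMP median of 3489, and 1 to 2 of them held Meis1, Apoe or Gata2 at 50 TPM. Mpo and Car2 met in 11 of 45 Ly6C-GMP cells and in 22 of 47 CMP cells, whereas Ms4a3 and Car2 met in 10 of 45 Ly6C-GMP cells and in 1 of 47 CMP cells. In the lowest of the 22 CMP cells, Mpo was at 50.14, 57.03, 58.25, 58.7 and 65.95 TPM. Of the granule and progenitor genes paired with Car2, Mpo was the one most often found beside it in CMP cells. This order is also that of the genes alone: Mpo was at 50 TPM in 38, Elane in 18 and Ms4a3 in 7 of 47 CMP cells. A link of Mpo with Car2 beyond this was not tested. Among the factors, Spi1 and Gata2 were both at 50 TPM in 10 of 45 Ly6C-GMP cells and in 9 of 47 CMP cells, all 9 with RMB titles. Cebpa and Gata1 met at this level in 0 cells of either label, which allows a share of up to 7.87% of Ly6C-GMP and 7.55% of CMP cells by the exact interval. Few cells held either gene: Cebpa was found in 4 and Gata1 in 2 of 45 Ly6C-GMP cells, and in 6 and 7 of 47 CMP cells. So few cells could hold both that the 0 says little about the pair. Irf8 and Cebpe met in 4 of 45 Ly6C-GMP cells and 0 of 47 CMP cells. Irf8 and Gfi1 met in 0 cells of each label at 50 TPM. Cebpe and Gfi1 were each at 50 TPM in 0 of 47 CMP cells, so no such pair could occur there. Gfi1 reached 50 TPM in 3 of 45 Ly6C-GMP cells, and at 1 TPM 2 Ly6C-GMP cells held it with Irf8.

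The comparison was made separately within the prefixes, which share no cell. Of 12582 genes, 942 (7.49%) were higher and 73 (0.58%) lower within both, and as a ratio of means 4.77% were higher and 6.86% lower within both. Across genes the differences within RHP and within RMB cells had a Pearson correlation of 0.32 and a Spearman correlation of 0.24, given as a description since genes are not independent. Of the genes called higher over all cells 48% were called so within both prefixes, and of those called lower 45.1%. A further 173 genes were lower within RHP and higher within RMB cells, and 25 the other way. The 5 with the widest gap, chosen after their values were seen, were Hprt, Tada1, Ccm2, Dynll1 and Timm8a1. Hprt, a purine salvage enzyme gene, was at -2.69 in RHP and 2.86 in RMB cells. RHP detected-gene medians were 4315 in Ly6C-GMP and 3564.5 in CMP cells, and RMB medians were 4538.5 in Ly6C-GMP and 3489 in CMP cells. Elane, Ms4a3, Mpo, Hdc, Car2 and Meis1 kept their direction and a size above 2 log2 units within each prefix, while Serpinb1a and Gata2 did not. Elane, Ms4a3, Mpo, Hdc, Car2 and Meis1 were among the 15 largest each way, a choice that required 1 unit within both prefixes. Their shared direction was therefore fixed by that choice and says nothing on how well the prefixes agree.

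**Figure D4:**
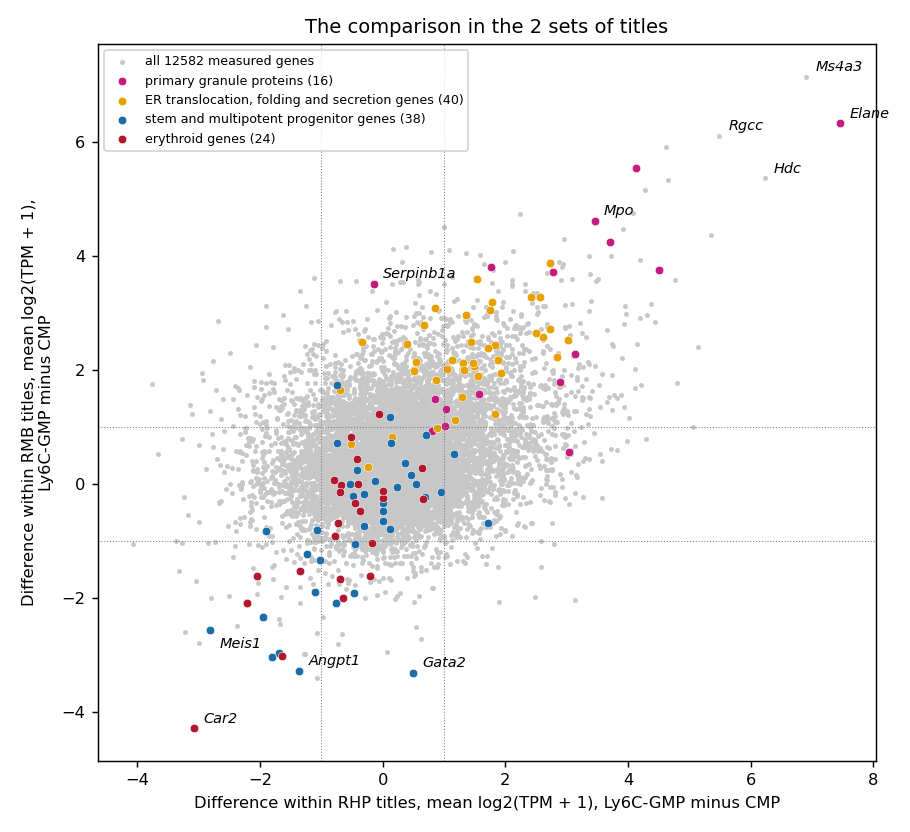
Difference in mean log2(TPM + 1), Ly6C-GMP minus CMP, within RHP cells (horizontal) and within RMB cells (vertical) for 12582 genes, with 4 gene lists in colour and dotted lines at 1 unit. Ms4a3 and Elane lie at the upper right and Car2 and Meis1 at the lower left, while Gata2 is at 0.50 in RHP and -3.31 in RMB cells and Serpinb1a at -0.14 and 3.51.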

How the data were processed

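The authors deposited 1 table of TPM values for all 281 cells, which divides each transcript by its length and by the cell's total. RSEM 1.2.19 and the build GRCm38 were used, per the submitters' processing notes. The aligner, annotation and any filter were not given in the sources used here. The kit does not mark strand, so reads of antisense genes cannot be separated. The table held 43280 symbols, and column totals of the 92 cells ran from 998703 to 999941 TPM.

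The cell type label put each cell in its group. A gene was measured where its mean reached 1 TPM in one label or the other, and called higher or lower where mean log2(TPM + 1) differed by 1 unit, a scale that understates low genes. No test was made, as no animal is named for any cell and each label therefore counts as 1 sample. Where 0 can be a failed estimate, the lowest, median and highest levels are given in place of an SD. No doublets were called and no cell was left out, and 0 columns were identical. The members and the 33 gene lists (730 genes) were chosen with earlier results of these data known. Of these genes, 3 were matched under an older symbol.

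Named genes were the 15 with the largest difference each way (a mean of at least 20 TPM and detection at 1 TPM in at least 30% of cells in the higher label, a ratio of means of the same sign, past 1 unit within both prefixes, no predicted, ribosomal or mitochondrial genes), the 4 largest of each list at 5 TPM or more, and Elane, Ms4a3, Car2 and Meis1. Other list members are named for their known role and were chosen after their values were seen. So was the limit of 50 TPM for counts of cells.

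Alternatives were other pseudocounts, filters, scalings, sizes and sets of cells. The calculation was tested on simulated data. Gene positions are from GENCODE M21 and promoters from RefSeq (GRCm38.p6). Python 3.11.15, numpy 2.4.6, pandas 2.3.3 and scipy 1.17.1 were used. Single values of a few list members are not reported here.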

Additional observations from a re-analysis of the deposited data

How the results depend on the processing

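No paired analysis was possible because the labels give the cells no replicate numbers and name no animal, and no result comes from a test. The number of genes higher in Ly6C-GMP cells, 1964, was 3372 with a pseudocount of 0.1 TPM, 535 with 10 TPM, 1105 in cells with 3000 to 5000 detected genes and 364 at 2 log2 units. The number lower, 162, was 400 and 48 with these pseudocounts, 2840 as a ratio of means, 853 in RHP and 286 in RMB cells, 569 in cells with 3000 to 5000 detected genes and 24 at 2 units. Genes past the limit in the same direction within both prefixes, 1015, were 151 at 2 units. Primary granule members higher, 15, were 8 as a ratio of means. Erythroid members lower, 8, were 4 with a pseudocount of 10 TPM, 19 as a ratio of means, 5 in RHP cells and 3 at 2 units. Megakaryocyte members lower in Ly6C-GMP cells, 6, were 12 and 3 with pseudocounts of 0.1 and 10 TPM, 22 as a ratio of means, 10 in RMB cells and 1 at 2 units. Stem members lower, 13, were 21 as a ratio of means and 7 at 2 units. Of the genes named by the rule above with a difference of at least 1, 7 changed sign under an alternative. As a ratio of means Cdk2 went to -0.23, Ier2 to -0.22, Rac2 to -0.20, Selplg to -0.10 and Tapbp to -0.42. In RHP cells Cdk2 went to -0.054, Ier2 to -0.20, Selplg to -0.28, Tnfrsf1a to -0.66 and Gata2 to 0.50. List members named for their role are outside this count, and among them Csf3r, Serpinb1a and Man2b1 also changed sign. The causes were not tested. The other alternatives (no filter, a mean of at least 10 TPM, median-ratio scaling, renormalising without abundant genes, leaving out the cells high in Ngp or each gene's highest cell) moved none of the counts given here for all cells by over 1.5 times. For the 1015 genes the ratio of means gave 1463 and median-ratio scaling 882, and the remaining alternatives were not run. The depth of a cell is unknown, so low shares cannot be told from undetected transcripts.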
